A study of Mus musculus with 12 samples.

Results

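The p53 pathway was described through 10 genes: *Trp53*, which encodes p53 in the mouse, and 9 genes that p53 is known to activate, namely *Mdm2*, *Cdkn1a*, *Ccng1*, *Sesn1*, *Sesn2*, *Zmat3*, *Trp53inp1*, *Phlda3* and *Gtse1*. They were taken by name from a table of 24453 genes, and all 10 passed the filter on low counts among 14026 genes that were tested. Between the parental line and the derived lines, the RNA of *Trp53* differed by less than the thresholds used, while that of *Cdkn1a*, *Trp53inp1* and *Sesn2* was several fold higher in each derived line. *Mdm2*, *Ccng1* and *Zmat3* rose in both knockout clones, *Mdm2* in PKO-1 just past the fold threshold. In rho0 every library of these genes was also above TM6, by a smaller step, and *Ccng1* was called. *Sesn1* moved the other way.

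The libraries were made from 4 lines of mouse embryonic fibroblasts (MEFs) of strain C57BL6/J, all homozygous for *Pnpt1* neo-flox. *Pnpt1* encodes PNPase, a mitochondrial exoribonuclease. TM6 is the parental line, untreated. The rho0 line came from TM6 after 3 weeks with ditercalinium dichloride dihydrochloride at 750 ng/mL, an agent that depletes mitochondrial DNA. PKO-1 and PKO-6 are 2 clones that were obtained from TM6 by adenoviral delivery of Cre recombinase, the enzyme that cuts out the floxed piece of *Pnpt1*. Every line was grown with 50 µg/mL uridine. Each derived line grew from a single cell, so a difference between lines is also a difference between clones, and the treatment and the clone cannot be told apart. The 3 libraries of a line are separate cultures of it, and p-values measure the spread between such cultures. According to the study's text, TM6 was immortalized with the SV-40 large T antigen, and every line here descends from it.

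p53 is a transcription factor that is held at a low level in most cells because *Mdm2*, an E3 ubiquitin ligase, marks it for degradation. Stress such as DNA damage frees p53 from *Mdm2*, and p53 then binds response elements made of paired half-sites and activates genes for cell cycle arrest, DNA repair, cell death and metabolism. *Mdm2* is itself such a target, which closes a feedback loop. p53 is regulated mostly as a protein, so the RNA of its targets and not that of *Trp53* is the usual readout of its activity at the RNA level. Large T antigen binds p53 and blocks its binding to DNA, and cells with the antigen typically hold much p53 protein of low activity. These libraries measure RNA alone.

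Sequences next to the start sites were searched for a p53 response element, the feature by which p53 recognises a target directly. The windows ran from 250 bases before to 50 bases after each start site and were taken from RefSeq on build GRCm38.p6. *Zmat3* and *Trp53inp1* were not matched, and the other 8 genes had 11 windows. An element was defined as 2 adjacent copies of the p53 half-site consensus, 20 bases in all, with at most 1 mismatch on either strand. It was found for *Cdkn1a*, *Ccng1* and *Gtse1*, that is in 3 of the 11 windows, and in 29 of 32851 windows of all genes (0.0883%). Each element is given 5′ to 3′ on the strand of its gene, with the mismatched base in lower case and the matching bases in capitals.
*Cdkn1a*: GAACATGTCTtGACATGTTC
*Ccng1*: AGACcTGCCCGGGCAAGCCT
*Gtse1*: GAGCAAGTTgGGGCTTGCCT
The *Cdkn1a* element lies at chr17:29090928-29090947, from position -51 to position -32 of the upstream start site of the gene on the plus strand (-1 being the base before the start). The *Ccng1* element lies at chr11:40755462-40755481, from position -195 to -176, on the minus strand. The *Gtse1* element lies at chr15:85859945-85859964, from position -1 to 19 of the downstream one of 2 start sites, on the plus strand.

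The 250 bases before the upstream start of *Cdkn1a*, chr17:29090729-29090978 on the plus strand, are shown because that start site is compared between the lines with the transcripts of the gene. The element stands in capitals.
*Cdkn1a* upstream promoter: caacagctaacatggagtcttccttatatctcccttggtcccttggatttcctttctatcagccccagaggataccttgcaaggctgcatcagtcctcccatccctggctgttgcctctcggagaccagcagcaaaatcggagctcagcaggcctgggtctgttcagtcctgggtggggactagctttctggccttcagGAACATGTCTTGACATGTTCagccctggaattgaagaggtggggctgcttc
The 250 bases before the start of *Ccng1*, chr11:40755287-40755536 on the minus strand, are shown beside it because this gene also rose in each derived line.
*Ccng1* promoter: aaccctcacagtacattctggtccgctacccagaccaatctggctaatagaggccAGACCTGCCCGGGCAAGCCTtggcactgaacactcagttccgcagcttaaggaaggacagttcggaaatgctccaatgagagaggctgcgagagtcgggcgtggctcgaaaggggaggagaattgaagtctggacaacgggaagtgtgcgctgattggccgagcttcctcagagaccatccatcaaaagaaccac
A single half-site is common, and was found in 8.36% of all windows and in 6 of the 11 windows of the matched genes. No match in these windows says only that these letters were not found there. Known p53 elements of several genes, such as those in the first intron of *Mdm2*, lie outside such windows.

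Totals per library were 47164860 to 67991378 estimated counts, of which the ribosomal RNA gene *Rn45s* took 12.2% to 19.6%. The normalized counts given for each gene are counts scaled to the mean library by TMM. As a check of the labels, *Pnpt1* stood at 3131 ± 262 normalized counts in TM6 (SD, n = 3), 5271 ± 230 in rho0, 1240 ± 44.2 in PKO-1 and 1944 ± 250 in PKO-6, so every PKO library was below every TM6 library. Of 10 fibroblast markers, 8 or 9 had a mean over 100 normalized counts in each line, with *Thy1* at 0 in PKO-6, and the summed markers were 411475 to 732693. The summed markers of epithelial cells (112 to 843), endothelial cells (27 to 389) and blood cells (84 to 211) were low in every library. In bulk RNA, fewer cells with a transcript and less of it per cell cannot be told apart.

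*Trp53* was present at a high level in all 4 lines. The gene lies on chromosome 11 at 69580359-69591873 (mm10, plus strand). The 3 TM6 libraries held 8893, 8642 and 8416 normalized counts, and those of rho0 held 11794, 9616 and 10095. PKO-1 had 7789, 8438 and 7509, and PKO-6 had 9187, 9714 and 7665. All 3 rho0 libraries lay above TM6, whereas both PKO clones overlapped with TM6. Against TM6, the log2 fold change was 0.28 ± 0.09 in rho0 (standard error; edgeR adjusted p = 0.0126), -0.13 ± 0.09 in PKO-1 (adjusted p = 0.226) and 0.03 ± 0.09 in PKO-6 (adjusted p = 0.753), and none was called. The difference between PKO-1 and rho0 was -0.41 ± 0.09 (adjusted p = 0.0013), without overlap and under the fold threshold. A gene was called where the adjusted p was below 0.01 and the absolute log2 fold change above 0.5. Per transcript length, *Trp53* had the highest level of the 10 genes in each line, with 164 ± 4.45 TPM (transcript abundance corrected for length) in TM6, 196 ± 6.28 in rho0, 143 ± 3.51 in PKO-1 and 161 ± 8.86 in PKO-6. *Trp53* has 2 transcripts in the annotation, which share a start site. They differ in where the last exon begins, and the one with the longer last exon made up 10.5% ± 1.54 of the gene's abundance in TM6, 10.5% ± 0.204 in PKO-1 and 10.5% ± 0.612 in PKO-6, and 6.71% ± 0.290 in rho0, whose highest library (6.96%) was below the lowest of the others (8.92%). No test was run on these shares. A processed pseudogene of *Trp53* is annotated in the genome and was not analysed here, and whether reads from it were counted for *Trp53* was not tested.

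**Figure D1:**
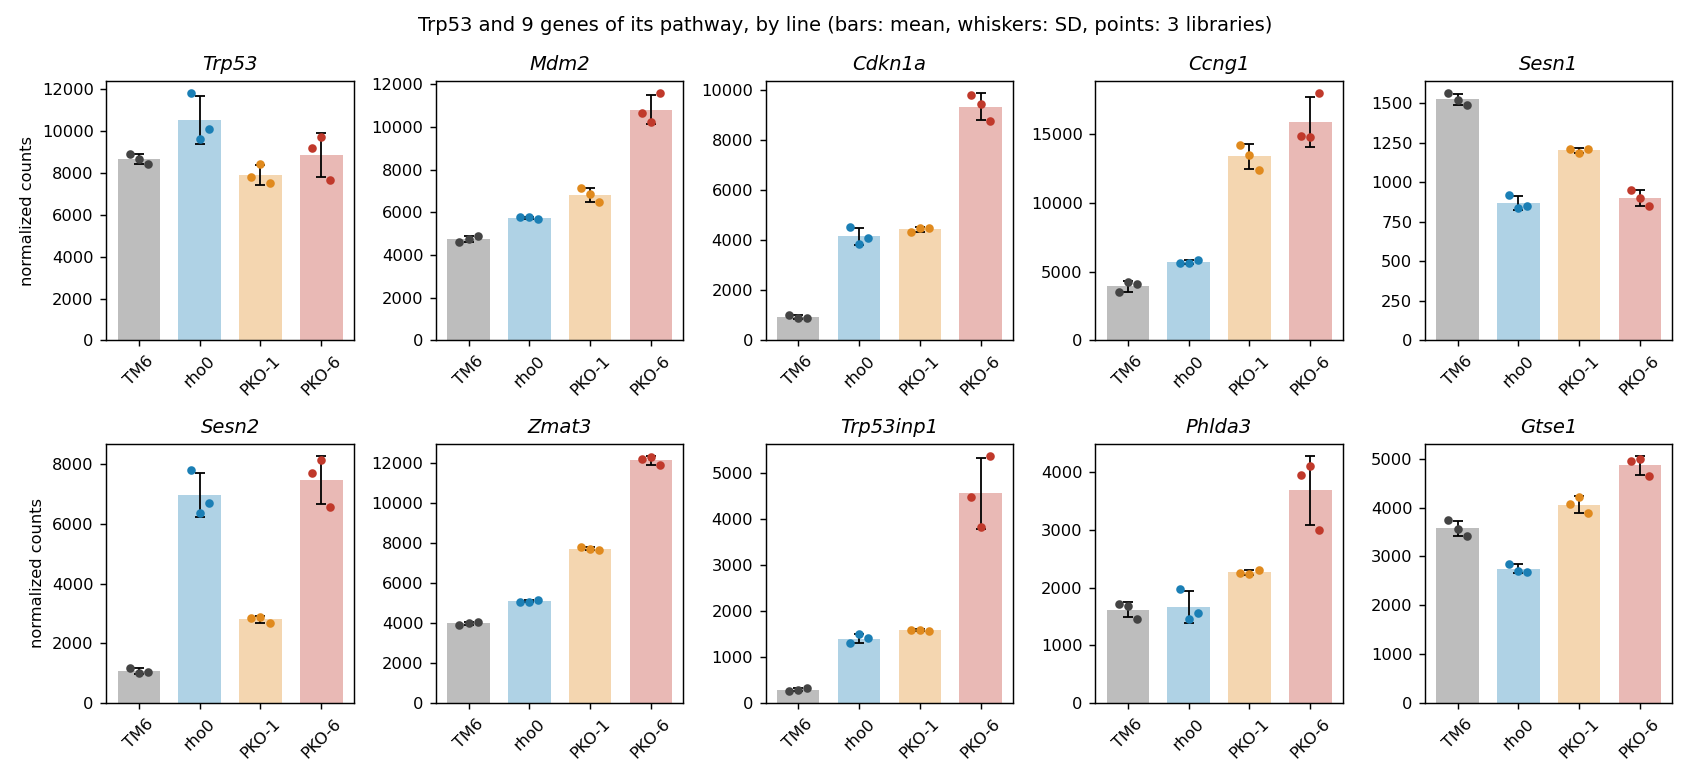
Normalized counts (y axes, linear from 0, with a scale of their own in each panel) of the 10 genes in TM6, rho0, PKO-1 and PKO-6; bars are means, whiskers SDs and points the 3 libraries. *Trp53* stays between 7509 and 11794 in all libraries, while *Cdkn1a*, *Sesn2* and *Trp53inp1* have every library of the derived lines above TM6.

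*Mdm2*, the ligase that restrains p53 (chromosome 10, 117688875-117710758, minus strand), was higher in both knockout clones. TM6 libraries had 4600, 4760 and 4900.2 normalized counts, rho0 libraries 5764, 5769 and 5667, PKO-1 libraries 7132, 6870.1 and 6484, and PKO-6 libraries 10629, 10241 and 11567. The 4 lines did not overlap, in the order TM6, rho0, PKO-1 and PKO-6. The increase against TM6 was 2.27-fold in PKO-6 (log2 1.19 ± 0.06, adjusted p = 3.14e-10). It was 1.44-fold in PKO-1 (log2 0.52 ± 0.06, adjusted p = 1.91e-06), which is just past the fold threshold; 6 of the alternatives put it between 0.47 and 0.50 on the log2 scale, and the call was lost there. In rho0 *Mdm2* was not called (log2 0.27 ± 0.06, adjusted p = 0.000619). Per length, the level of *Mdm2* went from 49.6 ± 1.61 TPM in TM6 to 109 ± 14.3 TPM in PKO-6.

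The genes of cell cycle arrest were led by *Cdkn1a*, which encodes p21, the inhibitor of cyclin-dependent kinases through which p53 halts the cycle (chromosome 17, 29090979-29100722, plus strand). TM6 libraries held 1019, 909 and 893 normalized counts. Those of rho0 held 4526, 3864 and 4086, those of PKO-1 4333, 4468 and 4493, and those of PKO-6 9807, 9415 and 8770.3. TM6 was lowest and PKO-6 highest with no overlap, while rho0 and PKO-1 overlapped with each other. Against TM6, *Cdkn1a* rose 4.42-fold in rho0 (log2 2.14 ± 0.07, adjusted p = 1.53e-11), 4.71-fold in PKO-1 (log2 2.24 ± 0.07, adjusted p = 1.29e-11) and 9.91-fold in PKO-6 (log2 3.31 ± 0.07, adjusted p = 2.7e-13). PKO-1 and rho0 differed by a log2 fold change of 0.09 ± 0.07 (adjusted p = 0.246). By TPM, *Cdkn1a* moved from rank 6 of the 10 genes in TM6 (16.5 ± 1.25 TPM) to rank 2 in PKO-6 (157 ± 5.74 TPM), next to *Trp53*.

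*Cdkn1a* has 2 annotated transcripts, and the upstream one starts 3′ of the response element printed above. This upstream transcript had 0.70, 1.86 and 0.78 TPM in the TM6 libraries, and 2.79, 3.35 and 2.46 TPM in rho0. It had 8.67, 10.5 and 10.7 TPM in PKO-1, and 21.3, 14.7 and 28.1 TPM in PKO-6. No line overlapped another in this transcript. The transcript made up 13.4% ± 1.29 of the gene's abundance in PKO-1 and 13.6% ± 3.97 in PKO-6, against 4.01% ± 0.697 in rho0, where every library was below every PKO library. The TM6 share of 6.90% ± 4.29 rested on 45.1 to 114 estimated counts per library, and its highest library (11.8%) reached into the range of PKO-6. The shares are RSEM estimates, and no test was run on them.

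**Figure D2:**
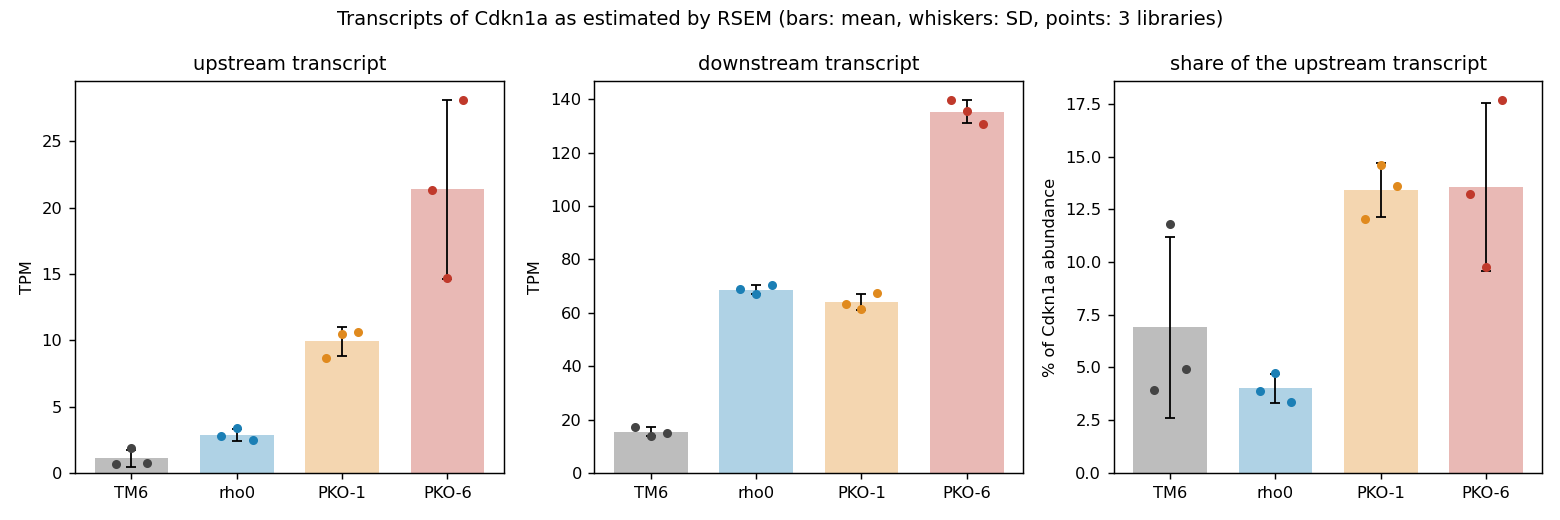
TPM of the upstream and the downstream transcript of *Cdkn1a* (left and middle, linear axes from 0) and the share of the upstream transcript in percent (right) in each line; bars are means, whiskers SDs and points the 3 libraries. The downstream transcript is similar in rho0 and PKO-1, whereas the upstream one is 2.46 to 3.35 TPM in rho0 and 8.67 to 10.7 TPM in PKO-1.

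*Ccng1* encodes cyclin G1, which recruits a phosphatase to *Mdm2* (chromosome 11, 40748552-40755286, minus strand). Its TM6 libraries had 3501, 4223 and 4093 normalized counts and its rho0 libraries 5654, 5602 and 5877. PKO-1 had 14216, 13525 and 12408, and PKO-6 had 14898, 14827 and 17971. The lines did not overlap, and both PKO clones stood well apart from TM6 and rho0. The rise was 3.40-fold in PKO-1 (log2 1.76 ± 0.09, adjusted p = 9.54e-10) and 4.04-fold in PKO-6 (log2 2.01 ± 0.09, adjusted p = 1.59e-10). In rho0 it was 1.45-fold (log2 0.54 ± 0.09, adjusted p = 8.25e-05) and fell under the fold threshold without TM6 replicate 1 (0.44) or without rho0 replicate 3 (0.495). Compared directly, *Ccng1* was 2.34-fold higher in PKO-1 than in rho0 (log2 1.23 ± 0.09, adjusted p = 4.15e-08), and PKO-1 and PKO-6 did not differ past the threshold (log2 -0.25 ± 0.09, adjusted p = 0.0218).

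*Gtse1* encodes a protein of G2 and S phase that binds p53 and moves it out of the nucleus, and its RNA follows the cell cycle (chromosome 15, 85859707-85876573, plus strand). TM6 libraries had 3738, 3560 and 3420.4 normalized counts, rho0 2856, 2700.1 and 2685, PKO-1 4074, 4220.0 and 3893, and PKO-6 4944, 4997 and 4642. The 4 lines did not overlap. None of the *Gtse1* differences from TM6 was called, at a log2 fold change of -0.38 ± 0.05 in rho0 (adjusted p = 2.15e-05), 0.18 ± 0.05 in PKO-1 (adjusted p = 0.00721) and 0.44 ± 0.05 in PKO-6 (adjusted p = 4.09e-06). The value in rho0 equals the median of all tested genes on chromosome 15, where *Gtse1* lies, which was -0.38. With chromosome medians removed, the value in PKO-6 rose to 0.54 and was called (adjusted p = 6.83e-07). *Gtse1* was called higher against rho0 in PKO-1 (log2 0.56 ± 0.05, adjusted p = 6.91e-07) and in PKO-6 (log2 0.82 ± 0.05, adjusted p = 2.88e-08), although the former fell to 0.41 with the chromosome median removed.

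The sestrins, stress proteins that restrain the growth kinase complex mTORC1, went in opposite directions. *Sesn2*, which is also a target of the stress factor ATF4, lies on chromosome 4 at 132492807-132510456 (minus strand) and had 1174, 1009.8 and 1045 normalized counts in TM6. Its rho0 libraries held 7801, 6382 and 6715. PKO-1 had 2842, 2896 and 2670.4, and PKO-6 had 7714, 8127 and 6581. PKO-1 lay between TM6 and the other lines without overlap, while rho0 and PKO-6 overlapped. The rise against TM6 was 6.47-fold in rho0 (log2 2.69 ± 0.10, adjusted p = 2.5e-11), 2.60-fold in PKO-1 (log2 1.38 ± 0.09, adjusted p = 2.08e-08) and 6.94-fold in PKO-6 (log2 2.79 ± 0.10, adjusted p = 1.22e-11). *Sesn2* was the one gene of the 10 called lower in PKO-1 than in rho0 (log2 -1.31 ± 0.09, adjusted p = 3.17e-08).

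*Sesn1*, on chromosome 10 at 41810574-41908436 (plus strand), was highest in TM6, with 1562, 1519 and 1492 normalized counts. It had 920.2, 838 and 851 in rho0, 1209.5, 1186 and 1209 in PKO-1, and 949.9, 899 and 851 in PKO-6. Only rho0 and PKO-6 overlapped. *Sesn1* fell by 0.81 ± 0.06 on the log2 scale in rho0 (adjusted p = 3.01e-08) and by 0.76 ± 0.06 in PKO-6 (adjusted p = 4.75e-08), whereas the value of -0.34 ± 0.06 in PKO-1 was not called (adjusted p = 0.000139). Both of its annotated start sites had a lower mean TPM in each derived line than in TM6. The upstream start went from 11.3 ± 0.390 TPM in TM6 to 6.95 ± 0.552 in rho0, and the downstream start from 5.09 ± 0.724 to 2.09 ± 0.496.

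*Trp53inp1*, *Zmat3* and *Phlda3* are targets that act in cell death, RNA binding and kinase signalling. *Trp53inp1* encodes a stress protein of autophagy and apoptosis (chromosome 4, 11156441-11174377, plus strand), and had the largest change of the 10 genes in PKO-1 and PKO-6. Its TM6 libraries had 261, 294 and 321 normalized counts, rho0 1305, 1500.2 and 1414, PKO-1 1604, 1596 and 1563, and PKO-6 4484, 3836 and 5379. The lines did not overlap. The rise was 4.82-fold in rho0 (log2 2.27 ± 0.12, adjusted p = 9.06e-10), 5.44-fold in PKO-1 (log2 2.44 ± 0.12, adjusted p = 5.69e-10) and 15.7-fold in PKO-6 (log2 3.97 ± 0.12, adjusted p = 3.21e-12). Even so it remained among the lowest 2 of the 10 genes by TPM in each line, at 1.69 ± 0.175 TPM in TM6 and 25.7 ± 6.03 TPM in PKO-6.

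*Zmat3* encodes a zinc finger protein that binds RNA and acts on splicing (chromosome 3, 32334794-32365665, minus strand). The TM6 libraries held 3922, 3997 and 4036 normalized counts, with 5046, 5068 and 5149 in rho0, 7803, 7715 and 7654 in PKO-1, and 12202, 12300.0 and 11882 in PKO-6. The steps between the lines were many times the spread within them. *Zmat3* rose 1.94-fold in PKO-1 (log2 0.95 ± 0.04, adjusted p = 2.21e-10) and 3.04-fold in PKO-6 (log2 1.61 ± 0.04, adjusted p = 9.3e-13). In rho0 the log2 fold change of 0.35 ± 0.04 (adjusted p = 3.91e-06) was under the fold threshold, and with chromosome medians removed it was 0.52 and called. A gene on the opposite strand, *4930429B21Rik*, overlaps its 5′ end and had 50.9 to 169 normalized counts per library, which is small beside *Zmat3*. The libraries are strand-specific, but the strand setting of the counting is not given in the sources used here.

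*Phlda3* encodes a pleckstrin homology protein that keeps the kinase AKT from the membrane (chromosome 1, 135766085-135769134, plus strand). TM6 had 1709, 1679 and 1464 normalized counts, rho0 1980, 1455 and 1567, PKO-1 2249.9, 2229 and 2313, and PKO-6 3949, 4098 and 2999.7. TM6 and rho0 overlapped, and PKO-6 was higher than all other lines. *Phlda3* rose 2.28-fold in PKO-6 (log2 1.19 ± 0.12, adjusted p = 9.24e-07). It was not called in PKO-1 (log2 0.48 ± 0.12, adjusted p = 0.00314) or in rho0 (log2 0.04 ± 0.12, adjusted p = 0.755).

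**Figure D3:**
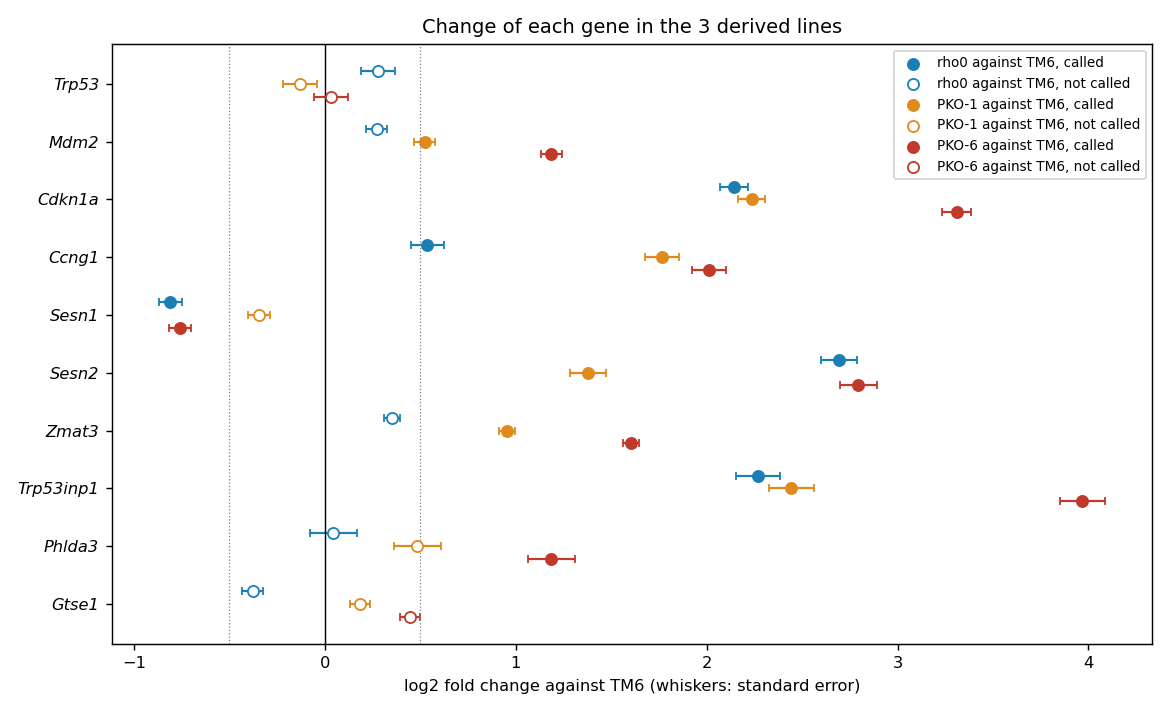
Log2 fold change against TM6 (x axis) of each of the 10 genes in rho0, PKO-1 and PKO-6, with standard errors as whiskers; filled points were called, open points were not, and dotted lines mark ±0.5. The values of *Trp53* lie between -0.13 and 0.28, and for 8 of the 10 genes PKO-6 lies above both other lines.

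Counted over the 10 genes, 4 were called higher and 1 lower in rho0 against TM6, a comparison that called 42.1% of all 14026 tested genes (20.7% higher, 21.4% lower). In PKO-1, 6 were called, each higher, beside 34.3% of all genes called, 16.4% higher and 17.9% lower. In PKO-6, 7 were higher and 1 lower, beside 41.3% of all genes called, 21.9% higher and 19.4% lower. The median log2 fold change of the 10 genes was 0.32 in rho0, 0.74 in PKO-1 and 1.40 in PKO-6, while that of all tested genes was 0.02, 0.00086 and 0.01. In each of these comparisons the libraries of 9 of the 10 genes did not overlap, as was so for 72.8%, 71.8% and 71.9% of all genes. The 3 comparisons share the TM6 libraries.

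With both clones pooled, as the study grouped them, 7 genes were called higher and 1 lower in PKO against TM6, beside 25.7% of all genes (13.5% higher and 12.2% lower). The libraries of 9 of the 10 did not overlap, beside 47.7% of all genes. The median log2 fold change was 1.10 for the 10 genes and 0.03 for all. *Trp53inp1* had a pooled log2 fold change of 3.40 ± 0.48 (adjusted p = 0.000132), *Cdkn1a* one of 2.87 ± 0.33 (adjusted p = 2.76e-05) and *Ccng1* one of 1.89 ± 0.11 (adjusted p = 1.91e-07). The differences between the clones enter the error here, but there is no term for the clone. Libraries of 2 clones were treated as independent, so these p-values do not measure the spread over independent knockouts. Without TM6 replicate 1, and likewise without TM6 replicate 2, 5 of the 8 calls held, and those of *Mdm2*, *Sesn1* and *Phlda3* were lost. Of all genes, 20.4% and 20.2% were called in these fits, fewer than the 25.7% with all libraries. With the replicate number as a block, *Phlda3* was no longer called (log2 0.88 ± 0.23, adjusted p = 0.0125). The pooled call of *Phlda3* was also lost without any 1 of the TM6 or PKO-6 libraries (log2 0.74 to 0.91), with the compared lines only (0.87) and with chromosome medians removed (0.67). That of *Sesn1* was lost without any 1 of the TM6 libraries (-0.55 to -0.54), without PKO-6 replicate 3 (-0.48) and with chromosome medians removed (-0.48). That of *Mdm2* was lost without TM6 replicate 1 (0.84) or 2 (0.89).

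The clones of the knockout differed from each other in most of these genes. In PKO-1 against PKO-6, 6 were called, each lower in PKO-1, beside 29.1% of all genes called, 11.5% higher and 17.6% lower. The median was -0.66 for the 10 genes and -0.01 for all, and 9 of the 10 did not overlap between the clones, beside 66.5% of all genes. The 6 genes lower in PKO-1 were *Trp53inp1* (log2 -1.52 ± 0.10, adjusted p = 2.48e-08), *Sesn2* (-1.42 ± 0.09, adjusted p = 1.37e-08), *Cdkn1a* (-1.07 ± 0.07, adjusted p = 1.15e-08), *Phlda3* (-0.70 ± 0.12, adjusted p = 0.00018), *Mdm2* (-0.66 ± 0.06, adjusted p = 2.05e-07) and *Zmat3* (-0.65 ± 0.04, adjusted p = 1.17e-08). *Ccng1*, *Gtse1*, *Trp53* and *Sesn1* were not called. With chromosome medians removed, *Mdm2* lost its call (log2 -0.47) and *Sesn1* gained one in the other direction (log2 0.61). *Pnpt1* itself differed in the same direction (log2 -0.65 ± 0.09, adjusted p = 1.92e-05).

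Against rho0 the clones gave different counts as well. In PKO-6 against rho0, 7 genes were called, each higher, beside 21.5% of all genes called and 13.3% called higher, and the median log2 fold change was 1.03. Of all genes, 8.15% were called lower there. The libraries of 7 of the 10 genes did not overlap, beside 56.7% of all genes. The 7 were *Mdm2*, *Cdkn1a*, *Ccng1*, *Zmat3*, *Trp53inp1*, *Phlda3* and *Gtse1*, with *Trp53inp1* at 1.70 ± 0.10 (adjusted p = 1.65e-08) and *Ccng1* at 1.48 ± 0.09 (adjusted p = 1.25e-08). In PKO-1 against rho0, 3 were higher (*Ccng1*, *Zmat3* and *Gtse1*) and 1 was lower (*Sesn2*), beside 32.7% of all genes called, 15.1% higher and 17.6% lower, and 9 of the 10 did not overlap, beside 69.5% of all genes. *Zmat3* was 1.52-fold higher there (log2 0.60 ± 0.04, adjusted p = 3.03e-08). With the median of each chromosome removed, *Zmat3* and *Gtse1* were no longer called in that comparison. The 2 calls left stand beside 29.9% of all genes.

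By mean normalized count, 6 genes had the order PKO-6, PKO-1, rho0, TM6 from high to low: *Mdm2*, *Cdkn1a*, *Ccng1*, *Zmat3*, *Trp53inp1* and *Phlda3*. Neighbouring lines in that order did not overlap, other than rho0 and PKO-1 for *Cdkn1a* and TM6 and rho0 for *Phlda3*. Across the 12 libraries, the 15 pairs among these 6 genes had a Pearson r of log2 CPM (counts scaled to the library total) between 0.765 and 0.986, and *Trp53* had an r between -0.384 and 0.0919 with each of them. The 12 libraries fall into 4 lines, so these values describe the differences between the lines and were not tested. The 6 genes were grouped by their order over the same libraries, and *Trp53* had another order. A high r among them and a low r with *Trp53* therefore follow in part from the grouping.

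The genes whose levels followed a member most closely were named by the highest r over the 12 libraries among 11205 genes that averaged 100 normalized counts or more. For *Cdkn1a* these were *Mex3a* (r = 0.994), *Zfyve1* (0.993) and *Akr1b10* (0.992), and *Mex3a* went from 1500 in TM6 to 2764 in rho0, 2899 in PKO-1 and 3744 in PKO-6. For *Mdm2* they were *Prokr1* (0.993), *Zfp365* (0.986) and *Hbegf* (0.983), and *Prokr1* went from 70.3 in TM6 to 821 in PKO-6. For *Trp53* they were *Rplp1* (0.969), *Map3k3* (0.964) and *Nadk* (0.958), and for *Gtse1* *Maml3* (0.986), *Mmd* (0.986) and *Marcksl1* (0.976).

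Other genes of the pathway give the setting of these 10. Of 44 further p53 targets, 43 were tested. In PKO-6 against TM6, 24 were higher and 6 lower, with a median log2 fold change of 0.68, beside 21.9% of all genes called higher and 19.4% called lower. In rho0 there were 17 higher and 10 lower (median 0.23), beside 20.7% and 21.4% of all genes, and in PKO-1 16 higher and 9 lower (median 0.33), beside 16.4% and 17.9%. The lower calls in rho0 and PKO-1 are near those shares of all genes. PKO-1 against PKO-6 had 1 higher and 18 lower (median -0.35), beside 11.5% and 17.6% of all genes. In PKO-6 against rho0, 18 were higher and 1 lower (median 0.42), beside 13.3% and 8.15%. PKO-1 against rho0 had 10 higher and 11 lower (median 0.04), beside 15.1% and 17.6%. All tested genes had medians of 0.02 in rho0, 0.00086 in PKO-1 and 0.01 in PKO-6 against TM6.

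Among 11 targets for arrest and repair, 7 were higher and 1 lower in rho0 (median 0.83), 5 higher and 1 lower in PKO-1 (median 0.45), and 10 higher and 1 lower in PKO-6 (median 1.05). The same shares of all genes stand beside these counts, 20.7% higher and 21.4% lower in rho0, 16.4% and 17.9% in PKO-1, and 21.9% and 19.4% in PKO-6. *Gadd45a*, a growth arrest gene that ATF4 also activates, rose from 354 ± 13.6 normalized counts in TM6 to 4379 ± 53.5 in rho0 (log2 3.63 ± 0.08, adjusted p = 4.83e-13), 609 ± 36.8 in PKO-1 (log2 0.78 ± 0.08, adjusted p = 2.08e-06) and 3356 ± 377 in PKO-6 (log2 3.25 ± 0.08, adjusted p = 7.14e-13). Like *Sesn2*, it lay in PKO-1 between TM6 and both other lines. *Btg2*, an antiproliferative gene, was 473 ± 26.8 in TM6, a mean of 540.1 in rho0, 812 ± 52.7 in PKO-1 and 1683 ± 386 in PKO-6. This is the order seen for *Cdkn1a*. The DNA repair genes *Ddb2* and *Xpc* were 2.56-fold (log2 1.35 ± 0.13, adjusted p = 5.76e-07) and 2.47-fold higher in rho0 (log2 1.30 ± 0.06, adjusted p = 2.55e-10). In PKO-6 both were also called higher (log2 1.25 ± 0.13, adjusted p = 1.19e-06, and log2 1.05 ± 0.06, adjusted p = 1.71e-09). In PKO-1 *Xpc* was called higher (log2 0.82 ± 0.06, adjusted p = 3.62e-08) and *Ddb2* was not called (log2 0.44 ± 0.13, adjusted p = 0.0111). *Plk2*, a polo-like kinase, was lower in rho0 (log2 -0.71 ± 0.06, adjusted p = 3.08e-07) and PKO-6 (log2 -0.74 ± 0.06, adjusted p = 1.88e-07).

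Among 13 targets for cell death, 4 were higher and 2 lower in rho0 (median 0.23), 4 higher and 2 lower in PKO-1 (median 0.19), and 7 higher and 1 lower in PKO-6 (median 0.68). Beside the 20.7% of all genes called higher and 21.4% called lower in rho0, and 16.4% and 17.9% in PKO-1, the counts in these lines are near the background, those of higher genes being somewhat above it. In PKO-6 the background was 21.9% and 19.4%. *Pmaip1*, which encodes the BH3-only protein NOXA, had a mean of 189 ± 11.4 normalized counts in TM6, 925 ± 38.6 in rho0, 657 ± 81.2 in PKO-1 and 2570.4 ± 286 in PKO-6, a 13.6-fold rise in the last (log2 3.76 ± 0.11, adjusted p = 1.9e-12). *Eda2r*, a death receptor, rose 4.32-fold in PKO-6 (log2 2.11 ± 0.12, adjusted p = 1.91e-09). It was also called higher in rho0 (log2 0.87 ± 0.12, adjusted p = 1.85e-05) and in PKO-1 (log2 0.89 ± 0.12, adjusted p = 1.82e-05). *Perp*, a membrane protein of apoptosis and desmosomes, split the clones. It went from 3616 ± 319 in TM6 to 907 ± 45.6 in PKO-1 (log2 -1.99 ± 0.07, adjusted p = 4.56e-11) and 7509 ± 104 in PKO-6 (log2 1.05 ± 0.07, adjusted p = 8.73e-09). In rho0 *Perp* was lower than in TM6, as in PKO-1, at 1952 ± 147 (log2 -0.89 ± 0.07, adjusted p = 7.15e-08).

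Among 19 tested targets for metabolism and other roles, 6 were higher and 7 lower in rho0 (median -0.35), 7 higher and 6 lower in PKO-1 (median 0.22), and 7 higher and 4 lower in PKO-6 (median 0.29), against the same background of 20.7% higher and 21.4% lower, 16.4% and 17.9%, and 21.9% and 19.4% of all genes. *Gdf15*, a stress cytokine, rose 16.4-fold in rho0 (log2 4.04 ± 0.11, adjusted p = 2.51e-12), 4.62-fold in PKO-1 (log2 2.21 ± 0.11, adjusted p = 1.36e-09) and 10.1-fold in PKO-6 (log2 3.34 ± 0.11, adjusted p = 9.35e-12). *Psrc1*, a microtubule-associated protein, went from 409 ± 47.8 normalized counts in TM6 to 594 ± 17.1 in rho0, 1166 ± 53.2 in PKO-1 and 1922 ± 89.7 in PKO-6. *Thbs1* and *Cd82*, which encode a secreted and a surface protein, were called lower in each derived line. *Thbs1*, thrombospondin 1, was 57803 ± 2597 in TM6, 4688 ± 243 in rho0, 22030 ± 294 in PKO-1 and 8237 ± 764 in PKO-6. *Cd82*, a tetraspanin, fell by 1.82 ± 0.11 in rho0 (adjusted p = 4.86e-09) on the log2 scale. Fibroblast markers as a list were also lower in rho0 and PKO-6, with a median log2 fold change of -1.46 and -1.28, and stood at 0.29 in PKO-1; their part in these values was not tested.

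**Figure D4:**
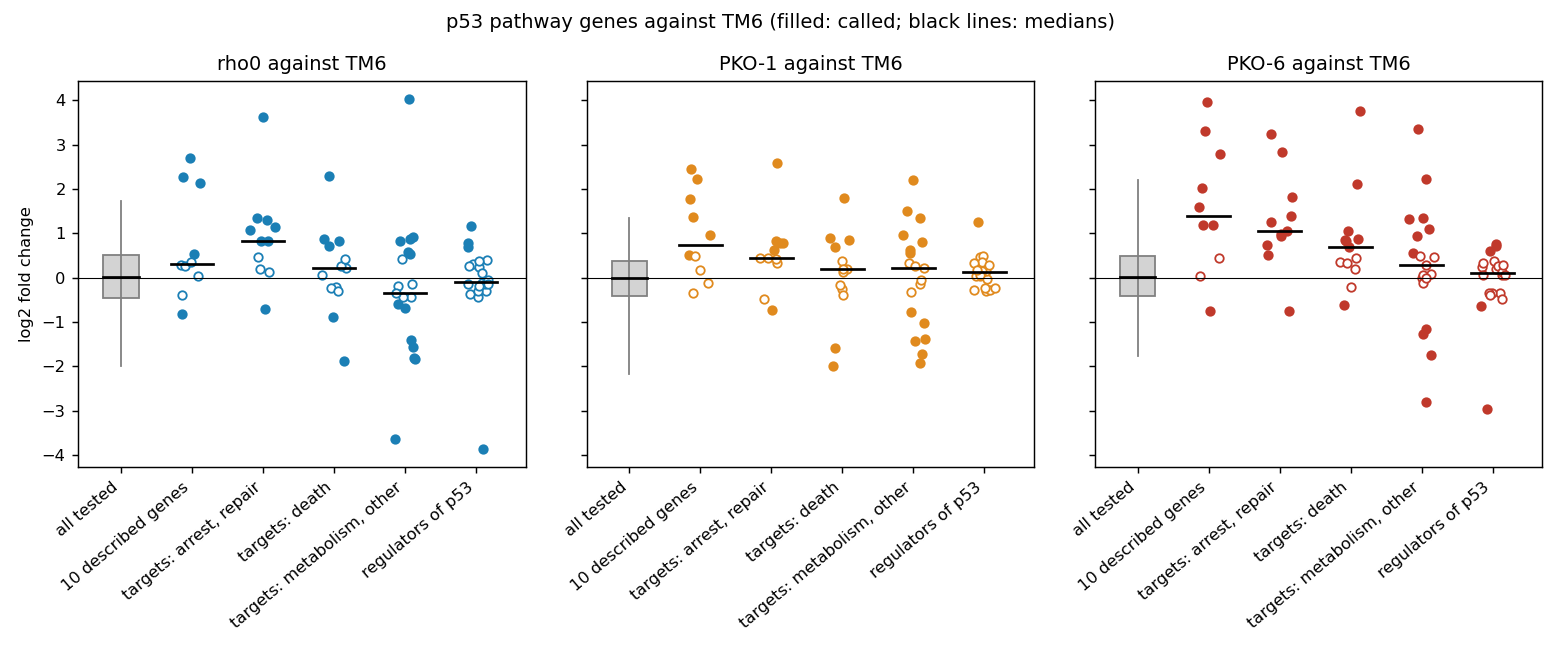
Log2 fold changes against TM6 (y axis) of the 10 described genes, of further p53 targets by role and of regulators of p53, in rho0, PKO-1 and PKO-6; filled points were called, black lines are medians, and the grey box and line on the left of each panel span the middle 50% and 90% of all tested genes. In PKO-6 the targets for arrest and repair lie mostly above 0, with a median of 1.05, and the regulators have a median of 0.10.

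Of 20 tested regulators, 3 were higher and 1 lower in rho0, 1 was called in PKO-1, which was higher, and 3 were higher and 2 lower in PKO-6. These counts stand beside the 42.1%, 34.3% and 41.3% of all genes called in the same comparisons. The lower call in rho0, the call in PKO-1 and 1 of the 2 lower calls in PKO-6 were *Trp63*, a p53 family member with few counts. Its log2 fold changes were -3.86 ± 0.47 in rho0, 1.25 ± 0.27 in PKO-1 and -2.97 ± 0.40 in PKO-6. *Mdm4*, the partner of *Mdm2* that binds and blocks p53, was 3411 ± 219 normalized counts in TM6, 7672 ± 1319 in rho0, 4096 ± 320 in PKO-1 and 5629 ± 873 in PKO-6. It rose 2.25-fold in rho0 (log2 1.17 ± 0.13, adjusted p = 1.65e-06) and 1.65-fold in PKO-6 (log2 0.72 ± 0.13, adjusted p = 0.000145), and was not called in PKO-1 (log2 0.26 ± 0.13, adjusted p = 0.0803). The order of *Mdm4* thus differed from that of *Mdm2*, which was lower in rho0 than in both clones. *Atr*, the kinase that senses stalled replication, rose in rho0 (log2 0.78 ± 0.07, adjusted p = 1.67e-07) and PKO-6 (log2 0.77 ± 0.07, adjusted p = 1.64e-07). *Cdkn2a*, the locus of ARF and p16, was 13052 ± 1039 in TM6 and lower in PKO-6 at 8402 ± 1436 (log2 -0.64 ± 0.12, adjusted p = 0.000334). *Ppm1d*, a phosphatase that p53 activates and that switches p53 off, was not called in any derived line, with log2 fold changes of -0.36 ± 0.06 in rho0, 0.12 ± 0.06 in PKO-1 and -0.35 ± 0.06 in PKO-6.

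*Sesn2* and *Gtse1* each belong to a second programme, and their values are set beside lists of those programmes. Of 13 genes of the ATF4 axis, the amino acid and mitochondrial stress response, 11 were called in rho0, each higher (median 1.64). In PKO-1, 5 were higher and 1 lower (median 0.27), and in PKO-6, 11 were called, each higher (median 1.51). Of all genes, 20.7%, 16.4% and 21.9% were called higher in these comparisons. *Trib3*, an ATF4 target, went from 926 ± 71.1 normalized counts in TM6 to 12615 ± 1350 in rho0, 2650 ± 123 in PKO-1 and 10208 ± 841 in PKO-6. In PKO-1 against rho0, 11 of the 13 genes of this list were called, each lower (median -1.16), beside 17.6% of all genes called lower. *Sesn2* had the same order between rho0 and PKO-1 as this list, whereas *Ccng1*, *Zmat3* and *Mdm2* had the opposite one. That order was not particular to the ATF4 axis. Among the 43 further p53 targets tested, 11 calls had the direction of *Sesn2* and 10 the opposite. For the 11 targets of arrest and repair these counts were 5 and 2 (median -0.48). The part of ATF4 in the values of *Sesn2* was not tested.

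Of 22 genes of G2 phase and mitosis, 13 were called in rho0, each lower (median -0.51). In PKO-1, 3 were higher and 1 lower (median 0.18), and in PKO-6, 8 were called, each lower (median -0.31). Of all genes, 42.1%, 34.3% and 41.3% were called in these comparisons, with 20.7%, 16.4% and 21.9% higher and 21.4%, 17.9% and 19.4% lower. In PKO-1 the share of the list called was below that of all genes. The share of the list called lower was above that of all genes in rho0 and in PKO-6. *Gtse1* had the direction of that list in rho0 and PKO-1, and the other direction in PKO-6, where it was 0.44 ± 0.05. *Plk1*, a mitotic kinase, fell by 1.16 ± 0.07 on the log2 scale in rho0 (adjusted p = 3.91e-09) and by 0.93 ± 0.07 in PKO-6 (adjusted p = 2.85e-08), with -0.15 ± 0.07 in PKO-1 (adjusted p = 0.0617). *Cdk1* was 15097 ± 217 normalized counts in TM6, 7489 ± 624 in rho0, 12161 ± 301 in PKO-1 and 10271 ± 825 in PKO-6. A CCAAT box, a motif of many G2/M promoters, was found in the windows of 16 of 18 matched G2/M genes. It was also found for *Gtse1* and 5 of the other matched genes of the 10, and in 37.4% of all windows. A gene can have more than 1 window, so a share of genes and a share of windows are unlike measures. The search read both strands.

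**Figure D5:**
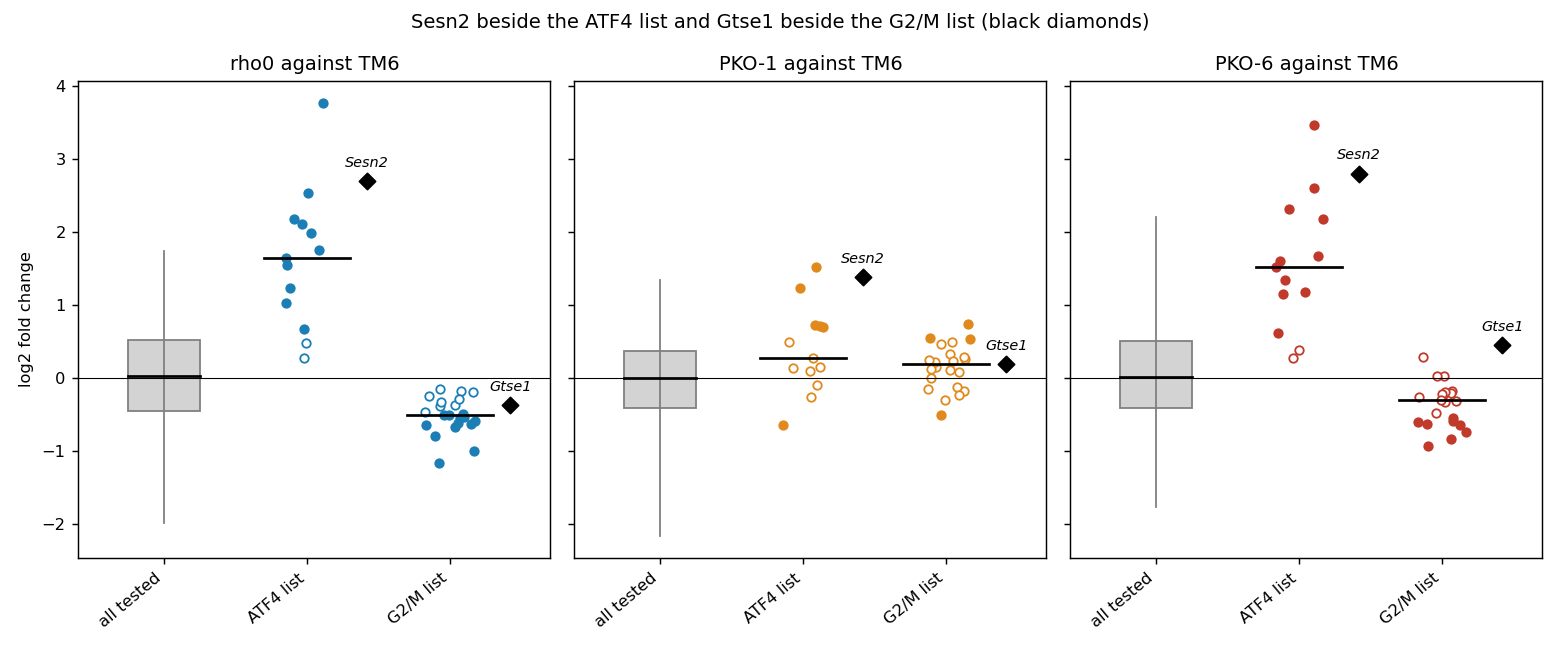
Log2 fold changes against TM6 (y axis) of 13 genes of the ATF4 axis and 22 G2/M genes in rho0, PKO-1 and PKO-6, with *Sesn2* and *Gtse1* as black diamonds beside them; filled points were called, black lines are medians, and the grey box and line span the middle 50% and 90% of all tested genes. The ATF4 list has medians of 1.64, 0.27 and 1.51 and *Sesn2* values of 2.69, 1.38 and 2.79, while *Gtse1* is above the G2/M median of -0.31 in PKO-6.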

How the data were processed

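The values deposited by the authors are estimated counts from RSEM 1.2.25 with bowtie2 against RefSeq transcripts of mm10 (GRCm38), per transcript in each of 12 libraries and collapsed to genes in 1 table. The authors merged the reads of technical duplicate libraries before counting, and removed ribosomal RNA before making strand-specific libraries. The deposited transcript values also give TPM and the percent of a gene's abundance that each transcript holds. Decimals occurred in 12.5% of the gene values, which were rounded. Estimated counts split reads between transcripts and between similar genes, so transcript shares are less certain than gene levels.

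The tests used edgeR 4.0.16 under R 4.3.3. A minimum count of 10 in filterByExpr left 14026 genes, TMM scaled the libraries, the quasi-likelihood test was fitted over 4 lines, and p was adjusted by the Benjamini-Hochberg method over all tested genes. PKO against TM6 was fitted over 3 groups with both clones pooled. A standard error is the log2 fold change divided by the square root of F. On simulated counts for rho0 against TM6 (13410 genes), 76% of genes changed by a log2 fold change of 1 and 93% of those changed by 2 were called. The alternatives were DESeq2 1.42.0 (size factors, or its Wald test), no filter, the compared lines only, the replicate number as a block, other thresholds, removal of *Rn45s* or of chromosome medians, and each library left out. Libraries of PKO-6 and TM6 with the same number deviated together (r = 0.250, 0.250 and 0.209). Libraries of different lines with different numbers reached an r of up to 0.490. No comparison was paired in the main fit, and the replicate number entered only as a block among the alternatives.

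The 10 genes and the lists were chosen with earlier results of these data known. Genes of other lists were named where they were called against TM6 with the largest fold changes (up to 2 per direction and list, a mean of at least 100 normalized counts, no overlap), besides *Mdm4*, *Cdkn2a* and *Ppm1d*. Some genes that pass this rule are left out of the text, among them 1 that is withheld. *Trp63* is named although its mean was below 100 normalized counts.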

Additional observations from a re-analysis of the deposited data

Results flagged for a closer look

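PKO-1 and PKO-6 are 2 clones of 1 genotype, and their difference, tested directly in the fit of 4 lines, was called for 6 of the 10 genes, beside 29.1% of all genes called and 17.6% called lower. With chromosome medians removed, *Mdm2* lost its call (-0.47) and *Sesn1* gained one in the other direction (0.61). In PKO-1 against PKO-6 the log2 fold change was -0.66 for *Mdm2*, -1.07 for *Cdkn1a*, -1.42 for *Sesn2*, -0.65 for *Zmat3*, -1.52 for *Trp53inp1* and -0.70 for *Phlda3*. Each of them was higher in all 3 PKO-6 libraries than in all 3 PKO-1 libraries. All 6 were called higher in PKO-6 than in TM6. In PKO-1 against TM6, 5 of them were called higher, *Mdm2* at the threshold, and *Phlda3* was not called (log2 0.48). The G2/M list went the other way between the clones, with 13 of 22 genes called, each higher in PKO-1 than in PKO-6 (median log2 fold change 0.53). The fibroblast markers were higher in PKO-1 too (7 of 9 tested, median 1.21). Of all genes, 11.5% were called higher in PKO-1 than in PKO-6. The part of these 2 lists in the differences of the 6 genes was not tested.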

How the results depend on the processing

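Of 940 log2 fold changes recomputed for the 10 genes under the alternatives, 900 kept their direction and their side of the thresholds, 27 lost the call, 5 gained it and 8 changed sign, none of the 8 being called. The sign changes were those of *Phlda3* in rho0 against TM6 (-0.025 without TM6 replicate 3 and -0.068 with chromosome medians removed; -0.1145 without rho0 replicate 1 to 0.1093 without rho0 replicate 2 over the libraries left out), *Trp53* in PKO-6 against TM6 (-0.0005078 without *Rn45s* and -0.026 without PKO-6 replicate 1; -0.072 without PKO-6 replicate 2 to 0.128 without PKO-6 replicate 3) and *Sesn1* in PKO-6 against rho0 (-0.1336 with chromosome medians removed; -0.002422 without PKO-6 replicate 1 to 0.091 without PKO-6 replicate 3). With no limit on the fold change, 8 genes were called in rho0 against TM6 (62.1% of all genes) and 8 in PKO-1 against rho0 (53.9%). With a log2 limit of 1 there were 3 in rho0 against TM6 (21% of all genes), 3 in PKO-1 against PKO-6 (13.9%), 2 in PKO-1 against rho0 (15.7%) and 5 in PKO against TM6 (12.7%), which follows from the limit itself. With chromosome medians removed, 2 were called in PKO-1 against rho0 (29.9% of all genes), and the cause was not tested. Leaving out 1 library gave 5 to 8 calls in PKO against TM6 (20.2% to 26.5% of all genes), with 5 without TM6 replicate 1 (20.4%) or 2 (20.2%). It gave 4 to 5 in rho0 against TM6 (39.5% to 44.2%) and 5 to 7 in PKO-1 against TM6 (32.3% to 33.4%). In PKO-1 against rho0 it gave 4 to 5 (29.2% to 34.5%). The other counts did not move. With the replicate block, 7 genes were called in PKO against TM6 (22.2% of all genes) because *Phlda3* was lost (log2 0.88, adjusted p = 0.0125). There were 8 in PKO-6 against TM6 (41.2%) and 5 in rho0 against TM6 (41.7%), and no other call of the 10 genes changed. DESeq2's Wald test changed 1 call, that of *Mdm2* in PKO-1 against TM6 (log2 0.50). The lowest sum over the 3 libraries of a line was 932 counts, for *Trp53inp1* in TM6, whereas the upstream *Cdkn1a* transcript in TM6 rested on 45.1 to 114 estimated counts per library.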

Other observations

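*Trp53cor1*, the long noncoding RNA lincRNA-p21 that p53 induces from the locus next to *Cdkn1a*, was looked at after its values were seen. It had 18.2, 11.5 and 12.96 normalized counts in the TM6 libraries, 346, 470 and 465 in rho0, 162, 137 and 157 in PKO-1, and 351, 363 and 339 in PKO-6. All libraries of the derived lines were above TM6. The log2 fold change against TM6 was 4.88 ± 0.18 in rho0 (adjusted p = 3.71e-11), 3.40 ± 0.19 in PKO-1 (adjusted p = 2.97e-09) and 4.60 ± 0.18 in PKO-6 (adjusted p = 4.85e-11). Its order between rho0 and PKO-1 was the reverse of that of *Ccng1* and *Zmat3*, with PKO-1 lower than rho0 (log2 -1.49 ± 0.14, adjusted p = 5.1e-07).

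Relatives of 2 of the 10 genes were also looked at after their values were seen. Sesn3, the remaining sestrin, had 1203 ± 84.7 normalized counts in TM6, 757 ± 11.6 in rho0, 786 ± 40.2 in PKO-1 and 946 ± 25.2 in PKO-6, and fell by 0.67 ± 0.07 in rho0 (adjusted p = 7.42e-07) and by 0.61 ± 0.07 in PKO-1 (adjusted p = 2.18e-06) on the log2 scale. Trp53inp2, the relative of *Trp53inp1*, had 1083 ± 24.3 in TM6 and 1313 ± 51.2 in PKO-6, a log2 fold change of 0.28 ± 0.06 that was not called (adjusted p = 0.00154), and was lower in PKO-1 at 712 ± 44.3 (log2 -0.60 ± 0.07, adjusted p = 2.45e-06). *Trp63*, the p53 family member of epithelia, was near the lower end of the counts, at 27.5 ± 3.55 in TM6, 1.81 ± 1.34 in rho0, 65.7 ± 12.6 in PKO-1 and 3.28 ± 2.01 in PKO-6. It belongs to the list of regulators and was called against TM6 in each derived line.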
